A study of Mus musculus with 8 samples.

Results

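The genes described here are 9 components that act directly beneath the Fcγ receptors, the cell surface receptors for IgG. They are the Src-family kinases Lyn and Fgr, the tyrosine kinase Syk, the Tec-family kinase Btk, the phospholipase Plcg2, the exchange factor Vav1, the phosphatases Inpp5d (SHIP1) and Ptpn6 (SHP-1), and the adaptor Card9. They were taken by name, as the rows of the count table whose Ensembl identifier carries one of these symbols in the GENCODE mouse annotation. All 9 were found among the 55385 genes of the table, and all 9 were among the 17537 that passed the filter on low counts. RNA was sequenced from primary cultured microglia, the resident macrophages of the brain, grown from wild-type newborn mice. Cells of the neocortex and hippocampus of several brains were pooled in a flask with serum, and the microglia were shaken off and replated before treatment. The control group held 4 samples, called untreated in the labels and PBS-treated in the study's methods, and the IgG group held 4 samples given 10 µg/ml IgG for 24 h at 15 days in vitro (DIV15). Libraries with the same number carry the same date in the labels of both groups, which do not say what was done on it, so the 8 libraries form 4 pairs, numbered 1 to 4. The comparison asked what IgG does to gene expression in microglia.

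Cross-linked Fcγ receptors are phosphorylated by Src-family kinases on the tyrosines of an activation motif (ITAM), which for most of these receptors lies on the shared γ chain Fcer1g. Syk binds the phosphorylated motif and hands the signal to Btk, Plcg2 and Vav1, which lead to calcium release, actin remodelling and phagocytosis, and to the Card9 complex, which leads to NF-κB. Inpp5d and Ptpn6 oppose this, the former by removing a phosphate from the lipid product of phosphoinositide 3-kinase and the latter by removing phosphate from tyrosines. Microglia also use Syk, Plcg2 and Inpp5d downstream of the Trem2 receptor. These proteins are switched by phosphorylation and by recruitment to the membrane, and RNA levels measure neither.

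The libraries held 21287816 to 23703216 counts. IgG libraries 1 and 3 stood apart from the rest in their share of mitochondrial counts, which was 4.85% and 5.59% there and 1.97% to 2.41% elsewhere. Differences within a pair also followed the GC content of genes, with Spearman's rho across 15468 genes of -0.42 in pairs 1 and 3, -0.03 in pair 2 and 0.34 in pair 4. The 12 microglial markers, among them C1qa, Cx3cr1 and Csf1r, summed to 9597 to 11670 TPM in control and 9451 to 12170 TPM in IgG libraries. TPM is used here for counts per length of exon, scaled to the same total in each library, which allows genes to be compared. The microglial markers had a median log2 fold change of 0.16 with IgG. Of the 12, 5 were higher at an unadjusted p under 0.05 and 0 were lower, beside 6.35% and 3.85% of all genes tested. Of these 5, 1 (Aif1) was called at an adjusted p under 0.05, beside 0.393% of all genes. The same shares stand beside the counts for the other cell types below. Markers of border-associated macrophages, a related myeloid type, summed to 35.1 to 44.4 TPM in control and 34.7 to 47.0 TPM in IgG libraries, with Cd163, Lyve1 and F13a1 under 1 TPM and a median log2 fold change of 0.17 over the 4 tested, of which 1 (Cbr2, 1.23, unadjusted p 0.0032, adjusted p 0.22) was higher at an unadjusted p under 0.05. Lymphoid and granulocytic cells left less trace. Markers of B cells summed to at most 0.717 TPM, those of T cells to at most 0.194 with Cd3e, Cd3g, Cd3d and Cd8a at 0 counts, those of mast cells to at most 1.37 with Fcer1a and Mcpt4 at 0, and those of neutrophils to at most 5.89 with Ly6g, S100a9, Mpo and Elane at 0. Markers of the oligodendrocyte lineage summed to 402 to 637 TPM in control and 314 to 596 TPM in IgG libraries, with a median log2 fold change of -0.14 and 1 of 8 lower at an unadjusted p under 0.05. Neuronal markers summed to 19.6 to 28.1 TPM and 12.5 to 22.9 TPM, with a median of -0.23 and 1 of the 6 tested lower. Markers of astrocytes summed to 107 to 125 TPM and 79.8 to 122 TPM, with a median of -0.13 and 0 past that p. Endothelial markers were low, at 1.64 to 2.96 TPM in control and 1.37 to 3.69 TPM in IgG libraries with Cldn5 at 0 counts, but had a median of 0.98 over the 3 tested, of which 1 was higher (Cdh5, 0.98, unadjusted p 0.0033, adjusted p 0.22). All 5 fibroblast markers were under 1 TPM, with a median of 0.14 over the 3 tested and 0 past that p. Where the RNA of these other types came from was not tested. The part of these shifts in the differences described below was not tested.

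None of the 9 genes passed a threshold for a change with IgG. Levels of a gene across libraries are given as CPM, read counts relative to library size after TMM scaling, and changes as log2 fold changes from the quasi-likelihood test of edgeR with the pair number as a block, adjusted by Benjamini-Hochberg over all 17537 genes. At an adjusted p under 0.05, 0 of the 9 genes were called, beside 0.393% of all genes tested. By the criterion of the study, an unadjusted p under 0.01 with an absolute log2 fold change above 0.5, the count was also 0 of 9, beside 1.82% of all genes. Without the block both counts were again 0, beside 0% and 0.844% of all genes. DESeq2 also called 0 of the 9 at an adjusted p under 0.05, beside 224 of the 17537 genes. edgeR's likelihood ratio test called 1, Lyn, with an adjusted p of 0.045, beside 327 of the 17537 genes. The main fit called 69 of them. In the main fit, at an unadjusted p under 0.05, 4 of the 9 were higher with IgG (Lyn, Vav1, Inpp5d and Ptpn6), beside 6.35% of all genes, and 0 were lower, beside 3.85%. Without the block 3 were higher at this level (Lyn, Vav1 and Ptpn6), beside 4.83% of all genes. The count was also 3 with other size factors, other filters, the likelihood ratio test, DESeq2 or pairs 2 and 4 alone. It was 2 without pair 1, 2 or 3 and with total counts as the scaling. It stayed at 4 without pair 4 and with trends on exon length and GC content removed. The shares of all genes at this p in these runs were not computed, so these counts cannot be read as particular to the 9 genes. Only without pair 4 was a member lower at this level, Card9. With total counts, Ptpn6 was at 0.12 (unadjusted p 0.27) and Inpp5d at 0.17 (unadjusted p 0.10) on the log2 scale. Lyn and Vav1 had an unadjusted p under 0.05 in every alternative run. Of the 9, 7 were higher with IgG in all 4 pairs, beside 10.4% of all genes, and Fgr and Card9 went in different directions in different pairs. DESeq2's size factors gave the same 7, beside 10% of all genes. With total counts, 2 of the 9 (Lyn and Vav1) were higher in all 4 pairs, beside 5.62% of all genes, and with trends on exon length and GC content removed 5 were (Syk, Lyn, Vav1, Inpp5d and Ptpn6), beside 12.1%. The median log2 fold change of the 9 genes was 0.17, with a range of -0.17 to 0.39. Over all genes tested the median was -0.01, and the 5th and 95th percentiles were -0.49 and 0.42. The 9 genes share libraries and are not independent of one another. In RNA from whole wells, fewer expressing cells and less RNA per cell cannot be told apart.

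**Figure D1:**
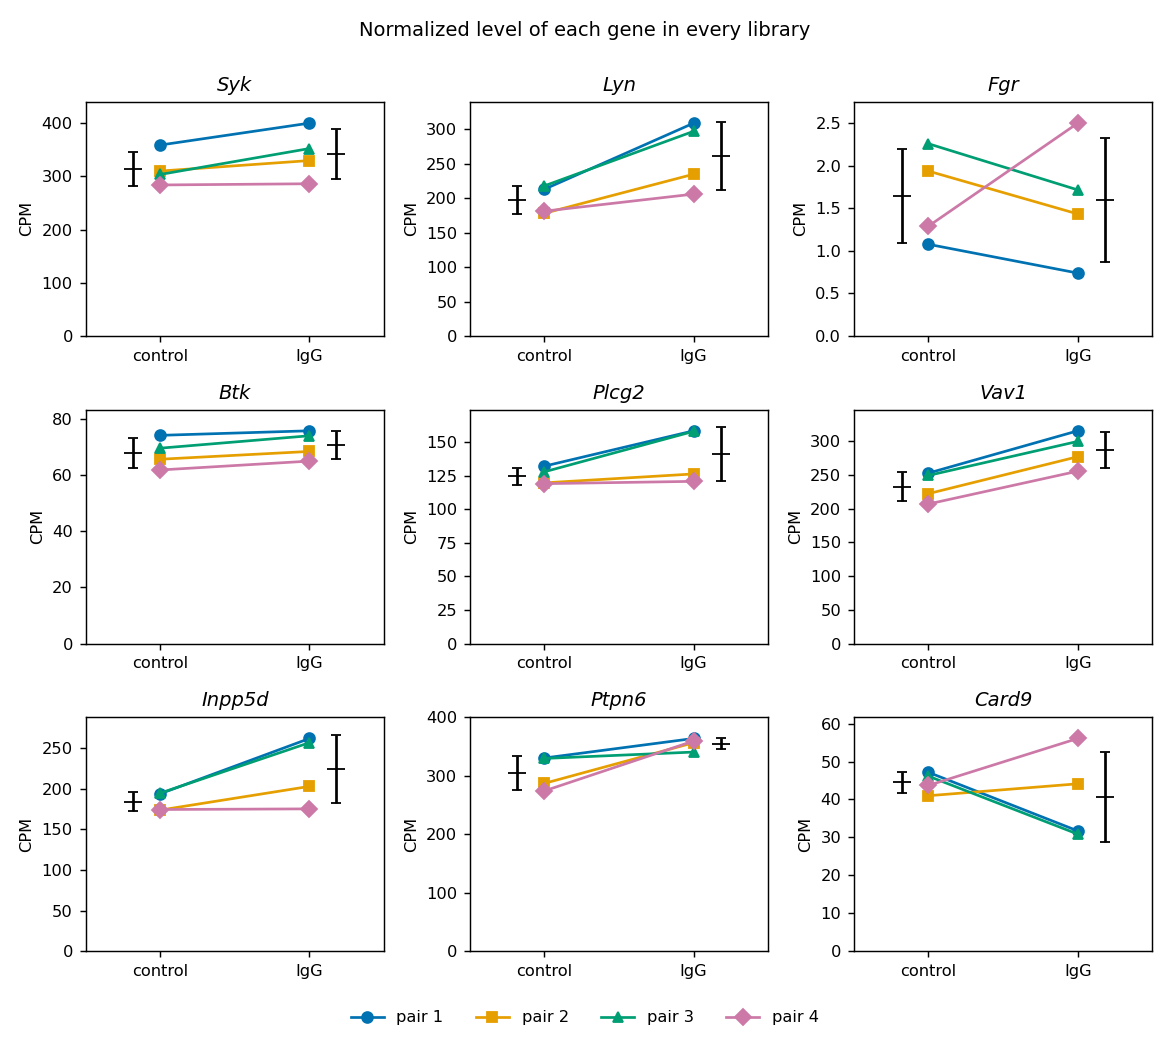
Level of each of the 9 genes in every library, in CPM (linear axis from 0), for control on the left and IgG on the right of each panel. Coloured lines join the control and IgG library of a pair, and the black bars beside them give the mean and SD of the 4 libraries of a group. With this TMM scaling IgG is the higher end of all 4 lines for 7 genes, as with DESeq2's size factors and against 2 with total counts, while the lines of Fgr and Card9 cross.

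Lyn, a Src-family kinase that phosphorylates ITAMs and also the inhibitory motifs to which Ptpn6 and Inpp5d bind, showed the largest difference of the 9. Its gene lies on the plus strand at chr4:3678115-3813122 of the GRCm38 build. Lyn was at 213, 178, 218 and 181 CPM in control libraries 1 to 4, and at 309, 235, 297 and 206 CPM in IgG libraries 1 to 4. IgG was the higher of each pair, but IgG library 4 lay below control libraries 1 and 3, so the groups overlapped. The fold change was 1.31 (95% interval 1.13 to 1.52), with a log2 fold change of 0.39 ± 0.09 (SE), an unadjusted p of 0.0029 and an adjusted p of 0.20. When the block was left out the log2 fold change was 0.41, with an unadjusted p of 0.016. In pairs 1 to 4 the log2 difference was 0.54, 0.40, 0.45 and 0.19, smallest in pair 4. With trends on exon length and GC content removed it was 0.44, 0.40, 0.35 and 0.21, again smallest in pair 4. Lyn shares 248 bases of exon with Gm26857 on the opposite strand, which was not analysed here.

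Fgr, a Src-family kinase of myeloid cells, was barely detected. Its gene lies at chr4:132974095-133001910 on the plus strand. It had 26, 43, 54 and 30 counts in control libraries 1 to 4 and 16, 33, 35 and 55 in IgG libraries 1 to 4, which is 0.740 to 2.50 CPM. Both the lowest and the highest value belonged to the IgG group. The log2 fold change was -0.08 ± 0.30 (SE), with a 95% interval of the fold from 0.585 to 1.53 and an adjusted p of 0.93. At this depth a change of up to about that size in either direction was not detectable.

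Of the Src-family kinases reported here, Lyn had the highest level per length, at 113 TPM on average. Fyn averaged 30.4 TPM, Src 22.1, Yes1 2.42, Lck 1.33 and Fgr 0.851, and Blk had 0 counts in all 8 libraries. With IgG, Fyn, Src, Yes1 and Lck lay between -0.26 (Lck) and 0.04 (Src) on the log2 scale, all with adjusted p of 0.61 or more.

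Syk, the kinase that docks on the phosphorylated ITAM, differed little. Its gene lies at chr13:52583173-52648792 on the plus strand. Syk was at 359, 310.1, 304 and 284 CPM in control libraries 1 to 4, and at 400.2, 329.8, 352 and 286 CPM in IgG libraries 1 to 4. The lowest library was control 4 and the highest IgG 1, and the groups overlapped over most of their range. Syk was 1.09-fold higher (95% interval 0.945 to 1.25), and the log2 fold change was 0.12 ± 0.09 (SE) with an unadjusted p of 0.21 and an adjusted p of 0.64. With total counts as the scaling the log2 fold change was 0.02, and on pairs 2 and 4 alone it was 0.05. Differences within pairs were 0.16, 0.09, 0.21 and 0.01, all above 0 with TMM (2 of the 4 with total counts) but small beside the spread between pairs, where pair 1 was 0.41 above pair 4. Its relative Zap70, which takes the place of Syk in T cells, had 12 counts in all 8 libraries together and was not tested, so Syk made up 99.8% or more of the pair's level in every library.

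Btk, a Tec-family kinase that phosphorylates Plcg2, had the smallest range over the 8 libraries of the 9 genes, the highest being 1.23-fold the lowest. Its gene is on the minus strand at chrX:134542336-134583570. Btk was at 74.1, 65.6, 69.5 and 61.8 CPM in control libraries 1 to 4 and at 75.7, 68.3, 73.9 and 64.9 CPM in IgG libraries 1 to 4. All 4 pairs differed in the same direction, by only 0.03 to 0.09 on the log2 scale, and the groups overlapped almost wholly. The ratio of IgG to control was 1.04 (95% interval 0.916 to 1.19) with an adjusted p of 0.79. Total counts alone in place of TMM gave a log2 fold change of -0.04. That scaling moved the median of all genes by -0.10, so the turned sign is not particular to Btk. Tec itself, the other family member with a substantial level, was lower by 0.16 on the log2 scale in the fit with an adjusted p of 0.61. Per length Btk averaged 44.5 TPM and Tec 35.3 TPM, while Bmx and Txk, kinases of endothelial or lymphoid cells, had 2 and 18 counts in total.

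Plcg2, which cleaves the membrane lipid PIP2 to release calcium and activate protein kinase C, lay between these genes and Lyn. Its gene is on the plus strand at chr8:117498291-117635142. Plcg2 was at 132, 119.6, 128 and 119 CPM in control libraries 1 to 4, and at 158, 126, 158 and 121 CPM in IgG libraries 1 to 4. IgG libraries 1 and 3 were well above the remaining 6, and IgG library 4 was within the control range. Its log2 fold change was 0.17 ± 0.09 (SE; 95% interval -0.04 to 0.38), with an unadjusted p of 0.10 and an adjusted p of 0.56. Its close relative Plcg1, which is more widely expressed, was lower in all 4 pairs, by 0.31 ± 0.10 (SE) on the log2 scale in the fit, with an unadjusted p of 0.014 and an adjusted p of 0.38. Per length Plcg2 held 86.2% to 89.6% of the summed level of the pair of genes in control and 87.9% to 93.2% in IgG libraries, larger with IgG in all 4 pairs.

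Vav1, the exchange factor that activates Rac and so actin remodelling, differed by nearly the same amount in every pair under the TMM scaling. Its gene is on the plus strand at chr17:57279100-57328031. Vav1 was at 253, 222, 249 and 207 CPM in control libraries 1 to 4, and at 315, 277, 299 and 255 CPM in IgG libraries 1 to 4. No control library reached the level of an IgG library, although the lowest IgG value exceeded the highest control value by less than the SD of either group (21.9 CPM for control and 26.2 CPM for IgG). Such a separation with IgG above was seen for 2 of the 9 genes, Vav1 and Ptpn6, beside 2.6% of all genes tested. With DESeq2's size factors Ptpn6 alone was separated, beside 2.24% of all genes. With total counts 0 of the 9 were, beside 1.15%, and with length and GC trends removed 0 were, beside 2.55%. The log2 difference within pairs was 0.32, 0.32, 0.27 and 0.30, and with total counts 0.15, 0.31, 0.11 and 0.23. The fit gave a fold change of 1.23 (95% interval 1.08 to 1.41), with a log2 fold change of 0.30 ± 0.08 (SE), an unadjusted p of 0.0060 and an adjusted p of 0.29. Without the block the log2 fold change was again 0.30, with an unadjusted p of 0.014. On pairs 2 and 4 alone, without IgG libraries 1 and 3 and their controls, it was 0.31 with an unadjusted p of 0.030. Per length Vav1 averaged 142 TPM against 19.3 for Vav2 and 8.99 for Vav3, whose log2 fold changes were 0.02 and 0.10 with adjusted p of 0.96 and 0.75.

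Inpp5d encodes SHIP1, which dephosphorylates the lipid PIP3 and is recruited by the inhibitory receptor Fcgr2b. Its gene is on the plus strand at chr1:87620312-87720507. Inpp5d was at 194, 174, 194 and 174 CPM in control libraries 1 to 4, and at 262, 203, 256 and 175 CPM in IgG libraries 1 to 4. Control libraries fell within a narrow band, whereas the IgG group ran from within that band up to 262 CPM, with libraries 1 and 3 highest. Inpp5d was 1.20-fold higher (95% interval 1.02 to 1.41), with a log2 fold change of 0.27 ± 0.10 (SE), an unadjusted p of 0.029 and an adjusted p of 0.46. Without the block the unadjusted p was 0.057. On pairs 2 and 4 alone the log2 fold change was 0.12 with an unadjusted p of 0.42, and the difference in pair 4 was 0.01. The broadly expressed relative Inppl1 (SHIP2) was at a higher level per length, 113 TPM on average against 54.1 for Inpp5d. Inpp5d made up 28.5% to 29.7% of the summed level of both genes in the control libraries, and 41.6%, 31.2%, 41.8% and 29.4% in IgG libraries 1 to 4. The large shares again belonged to IgG libraries 1 and 3.

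Ptpn6 encodes SHP-1, the tyrosine phosphatase that docks on inhibitory receptors of myeloid cells, and had the highest level per length of the 9. Its gene is on the minus strand at chr6:124720707-124738714. Ptpn6 was at 331, 287, 329.9 and 274 CPM in control libraries 1 to 4, and at 364, 357, 341 and 359.7 CPM in IgG libraries 1 to 4. The IgG libraries lay close together, with an SD of 10.1 CPM against 29.0 CPM in control, and with TMM all were above the control libraries. For Ptpn6 the fold change was 1.17 (95% interval 1.00 to 1.36), with a log2 fold change of 0.22 ± 0.10 (SE), an unadjusted p of 0.048 and an adjusted p of 0.49. Differences within pairs were uneven, at 0.14, 0.31, 0.05 and 0.39, and here pairs 2 and 4 were the larger ones. Ptpn6 shares 195 bases of exon with Gm20531 on the opposite strand, which had 1561 to 2039 counts beside 6369 to 8205 for Ptpn6, and the use of strand in counting is not given in the sources used here, so the values of Ptpn6 are uncertain to that extent. The relative Ptpn11 (SHP-2), an activator of the Ras pathway, was at 0.02 on the log2 scale with an adjusted p of 0.94. Per length it averaged 38.3 TPM against 238 for Ptpn6.

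Card9, the adaptor that links Syk and protein kinase C δ to Bcl10 and Malt1, differed in direction between pairs. Its gene is on the minus strand at chr2:26352176-26360918. Card9 was at 47.2, 41.0, 46.1 and 43.7 CPM in control libraries 1 to 4, and at 31.7, 44.1, 30.9 and 56.1 CPM in IgG libraries 1 to 4. IgG libraries 1 and 3 lay below every control library and IgG library 4 above every one of them. The log2 difference within pairs was -0.57, 0.11, -0.58 and 0.36. The fold change of 0.889 (95% interval 0.679 to 1.16; adjusted p 0.72) therefore joins pairs with differences in opposite directions. On pairs 2 and 4 alone the log2 fold change was 0.23 with an unadjusted p of 0.096, and without pair 4 it was -0.36 with an unadjusted p of 0.035 and an adjusted p of 0.19. Without pair 1 or 3 it was -0.03. Card9 shares 87 bases of exon with Gm13562 on the opposite strand, which had 147 to 272 counts beside 629 to 1232 for Card9.

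**Figure D2:**
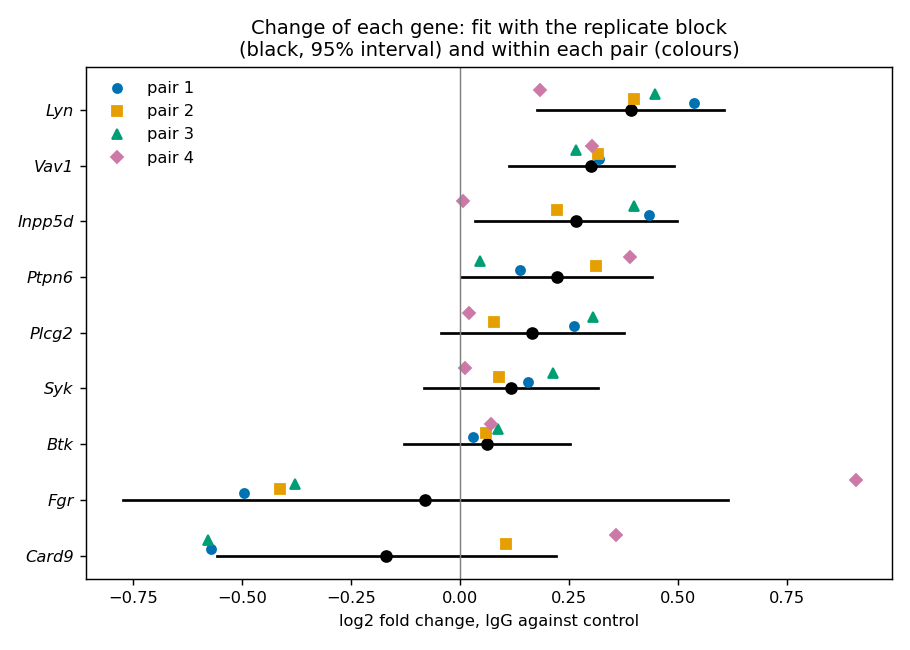
Change with IgG of each of the 9 genes on the log2 scale, ordered by size. Black dots and lines give the fitted log2 fold change with the pair number as a block and its 95% interval, and coloured symbols give the difference within each of the 4 pairs. The intervals of Lyn, Vav1, Inpp5d and Ptpn6 do not reach 0, before any adjustment for the number of genes tested.

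Per length the 9 genes fell into an order that spanned more than the differences with IgG. Ptpn6 (211 to 271 TPM over the 8 libraries) was above Vav1 (121 to 159.8) in every library. Vav1 was also above Lyn in every library, although their ranges overlapped (93.1 to 142 for Lyn), and Lyn was above Syk (57.6 to 80.6). Neighbours from Syk downward had overlapping ranges, with Plcg2 at 52.9 to 68.8, Inpp5d at 43.4 to 64.3, Btk at 38.8 to 49.4 and Card9 at 24.9 to 46.1. Within a library each was nevertheless above the next in all 8 libraries, except that Btk was above Card9 in 7 of the 8. Fgr stood far below all of them at 0.358 to 1.24. Among all genes tested, mean level put Ptpn6 at percentile 97.2, Card9 at 82.9 and Fgr at 11. With the length of the longest transcript in place of all exons, Syk moved from 70.9 to 105 TPM, Inpp5d from 54.1 to 71.0 and Plcg2 from 62.3 to 53.1, so that Inpp5d and Plcg2 changed places and Syk came near Lyn, which was then at 114 TPM.

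**Figure D3:**
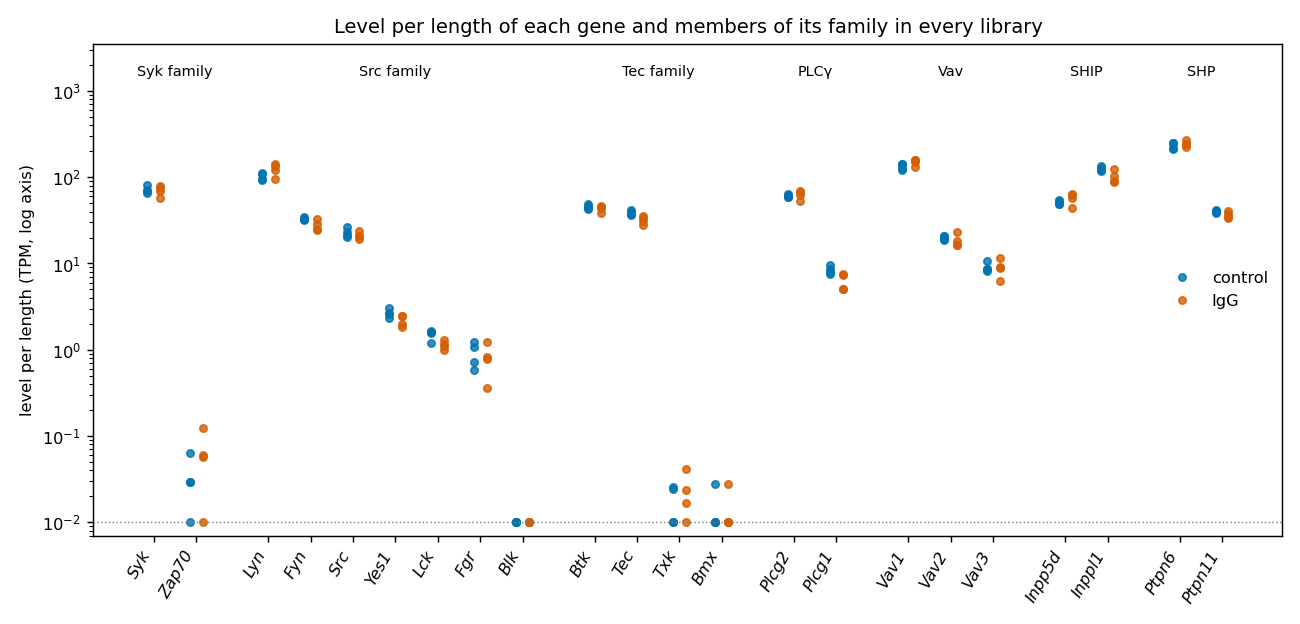
Level per length, in TPM on a log axis, for each of 8 of the 9 genes beside members of its family, with 1 dot per library, control in blue and IgG in orange. Values under 0.01, including 0 counts, are drawn on the dotted line. Syk, Plcg2, Vav1 and Ptpn6 lead their families, Lyn is the highest of the Src-family kinases drawn, and Inpp5d is below Inppl1.

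Levels of the 9 genes varied from pair to pair, but no difference among the pairs passed an adjusted p of 0.05. After the treatment was taken into account, pair 1 was highest and pair 4 lowest for 7 of the 9 genes, all but Fgr and Card9. With total counts pair 4 was again lowest for 7, and pair 1 was also highest for 5 of them. The spread between pairs on the log2 scale was 0.41 for both Syk and Lyn, and 0.14 for Ptpn6. No gene of the 9 passed an adjusted p of 0.05 in edgeR's quasi-likelihood F test of the pair terms, beside 0.975% of all genes tested, nor did any by DESeq2. Only Lyn had an unadjusted p under 0.05 there (0.028, adjusted 0.41). Genes of the Y chromosome did differ between the pairs. Ddx3y was at 20.7, 13.2, 21.2 and 5.27 TPM in control libraries 1 to 4 and at 21.3, 13.3, 21.1 and 2.84 TPM in IgG libraries 1 to 4, so pair 4 was lowest, as for 7 of the 9 genes, and pairs 1 and 3 were alike. The pair terms of Ddx3y (adjusted p 0.0091), Uty (0.0079), Kdm5d (0.0062) and Eif2s3y (0.015) passed in the quasi-likelihood test. Xist, expressed from the inactive X chromosome of female cells, was at 40.2, 67.5, 35.6 and 94.5 TPM in control and 38.5, 71.7, 29.9 and 41.9 TPM in IgG libraries 1 to 4, with an adjusted p of 0.25 for the pair terms. The part of the sex of the pooled pups in the differences between pairs was not tested. Across the 8 libraries, Plcg2 and Inpp5d followed each other most closely (Pearson's r of log2 CPM 0.98), followed by Lyn and Inpp5d (0.98) and Lyn and Vav1 (0.96). Card9 ran against them, with r of -0.85 with Inpp5d and -0.84 with Plcg2. These are descriptions over 8 libraries that share dates and a treatment.

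Differences in pairs 1 and 3 were alike in most of the 9 genes, and these are the pairs whose IgG library had the high mitochondrial share and whose changes ran against GC content. Removal of the trends on exon length and GC content in each library drew the pairs together for 6 of the 9 genes. For Ptpn6 the differences within pairs became 0.30, 0.31, 0.21 and 0.21, and their range narrowed from 0.34 to 0.10. For Card9 they became -0.31, 0.10, -0.31 and 0.13, so the range narrowed from 0.94 to 0.45 with the same directions. The pairs moved apart instead for Vav1, with differences of 0.41, 0.32, 0.36 and 0.18, and for Plcg2, with 0.35, 0.08, 0.39 and -0.07. For Btk the range also widened, from 0.06 to 0.07. The smallest adjusted p among the 9 genes in the fit with these trends removed was 0.060. Whether the mitochondrial share itself has a part in these differences was not tested.

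**Figure D4:**
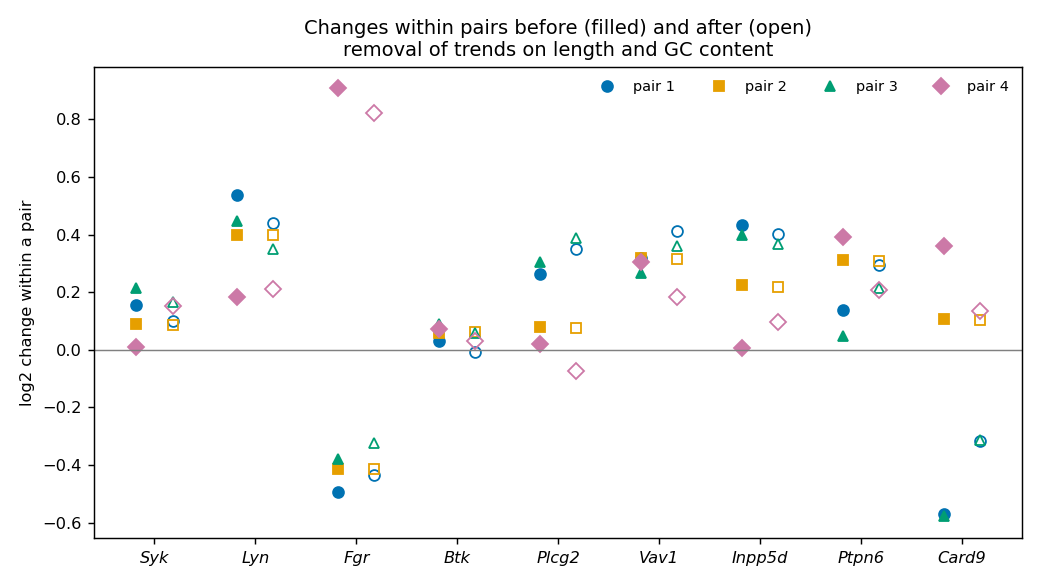
Difference between the IgG and the control library of each pair on the log2 scale, for the 9 genes, before (filled symbols) and after (open symbols) the trends on exon length and GC content were removed from each library. Open symbols lie closer together than filled ones for Ptpn6, Card9, Syk, Inpp5d, Lyn and Fgr, and farther apart for Vav1, Plcg2 and Btk.

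Promoter stretches of Vav1, Inpp5d and Ptpn6, 3 of the 4 genes with an unadjusted p under 0.05, are shown because Vav1 and Inpp5d carry the same letters just before their start site and Ptpn6 does not. The sequences are from RefSeq (GRCm38.p6), which gave windows of 250 bases before to 50 bases after the start site for 8 of the 9 genes, all but Lyn. Each stretch is the part before the start site that holds no GENCODE exon, which ends at the base before that site for Vav1 and Inpp5d and 5 bases earlier for Ptpn6, and is written 5′ to 3′ on the strand of its gene, at chr17:57278850-57279099 (plus) for Vav1, chr1:87620062-87620311 (plus) for Inpp5d and chr6:124738715-124738959 (minus) for Ptpn6. Capitals mark GAGGAA, a form of the ETS core of the type bound by the myeloid factor PU.1. The shorter ETS core GGAA was not searched for, and the Ptpn6 stretch does hold those letters.
Vav1: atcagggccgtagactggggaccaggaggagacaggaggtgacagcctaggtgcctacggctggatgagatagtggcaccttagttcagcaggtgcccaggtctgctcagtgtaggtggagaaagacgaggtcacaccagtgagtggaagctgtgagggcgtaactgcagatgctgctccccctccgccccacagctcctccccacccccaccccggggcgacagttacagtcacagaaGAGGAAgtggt
Inpp5d: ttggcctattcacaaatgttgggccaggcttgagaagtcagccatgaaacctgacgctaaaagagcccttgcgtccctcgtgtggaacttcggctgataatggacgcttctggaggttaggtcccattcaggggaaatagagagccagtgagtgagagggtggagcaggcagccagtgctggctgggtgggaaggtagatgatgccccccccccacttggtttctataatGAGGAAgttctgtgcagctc
Ptpn6: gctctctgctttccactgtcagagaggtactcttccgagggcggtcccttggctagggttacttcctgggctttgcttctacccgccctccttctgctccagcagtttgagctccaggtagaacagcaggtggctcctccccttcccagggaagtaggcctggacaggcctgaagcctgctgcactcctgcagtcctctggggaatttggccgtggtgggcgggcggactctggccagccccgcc
The capitals lie 11 to 6 bases before the start site in Vav1 and 20 to 15 bases before it in Inpp5d. On either strand, GAGGAA was found in the windows of 5 of the 8 genes (Syk, Fgr, Btk, Vav1 and Inpp5d) and in 28.3% of the 32851 windows of all genes. The interferon-stimulated response element (3.44% of all windows) and TTCNNNGAA, the interferon-gamma activated site (8.30%), were in the windows of 0 of the 8 genes. Both were searched on either strand as well, and a match of TTCNNNGAA may overlap one of GAGGAA. A match describes letters and not binding, and the absence of a match says only that the letters are not in these windows.

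Around the 9 genes, the Fcγ receptor pathway was described with a list of 81 genes in 16 roles, which includes them (Fcgr2b has 2 of the roles), and 76 of the list were tested. Of the other 67 genes tested, 2 were called at an adjusted p under 0.05, beside 0.393% of all genes, and both were higher, Fcgr1 and Fcgr4. A further gene met the criterion of the study, which made 3 beside 1.82% of all genes, and 0 of the 67 were lower by either rule. At an unadjusted p under 0.05, 10 were higher, beside 6.35% of all genes, and 3 lower, beside 3.85%. Their median log2 fold change was 0.04, beside 0.17 for the 9 genes and -0.01 for all genes tested. Without the block none of the list was called by either rule, beside 0% and 0.844% of all genes.

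The genes called were activating receptors. Fcgr1, the high-affinity receptor CD64, was at 206, 147, 200.4 and 97.1 CPM in control libraries 1 to 4 and at 382, 221, 368 and 167 CPM in IgG libraries 1 to 4. It was higher in every pair although the groups overlapped, with a log2 fold change of 0.78 ± 0.09 (SE) and an adjusted p of 0.016. Fcgr4, the mouse receptor for IgG2a and IgG2b, had a log2 fold change of 0.72 ± 0.10 (SE) and an adjusted p of 0.033. Both calls were lost without the block, with log2 fold changes of 0.81 and 0.77 (adjusted p of 0.69 for each). They were also lost on leaving out pair 1, 2 or 3, with log2 fold changes of 0.75 to 0.85 for Fcgr1 and 0.66 to 0.78 for Fcgr4. That of Fcgr4 was lost with total counts as the scaling too (0.62, adjusted p 0.058). Calls over all genes fell in the same runs. The main fit called 69 genes, the fit without the block 0 and total counts 37. Leaving out pair 1, 2 or 3 gave 14, 0 and 16. Fcer1g, the γ chain on which Syk docks, was at 532 to 606 CPM in control and 680 to 880 CPM in IgG libraries. The groups did not overlap, with IgG above, as for 2.6% of all genes tested. The log2 fold change of Fcer1g was 0.42 ± 0.10 (SE) with an unadjusted p of 0.0030 and an adjusted p of 0.21. It was called by the likelihood ratio test (adjusted p 0.039) and with no filter on low counts (0.036). Fcgr3 and the inhibitory receptor Fcgr2b were at 0.01 and 0.03 on the log2 scale, with adjusted p of 0.96 and 0.92. Their signs turned with total counts as the scaling, which moved the median of all genes by -0.10. Tyrobp, the ITAM adaptor of Trem2, was at -0.20 with an adjusted p of 0.67, and its IgG libraries 1 and 3 were the lowest of the 8.

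Downstream of the kinases, Pik3ap1, an adaptor that recruits phosphoinositide 3-kinase, met the criterion of the study (log2 fold change 0.52 ± 0.13 SE, unadjusted p 0.0031, adjusted p 0.21). It was called at an adjusted p under 0.05 by the likelihood ratio test (0.019), by DESeq2 (0.018), with no filter (0.0065) and without pair 4 (0.028). Lcp2 (SLP-76), the scaffold that joins Vav1 to Plcg2, was at 0.40 with an unadjusted p of 0.0047 and an adjusted p of 0.26. Lcp2 was named after its value was seen, as was Pik3r5 below. Of the 11 adaptors of the list, 6 were above 0, beside 49.1% of all genes tested, and 5 were below. Their median was 0.04, with a range of -0.42 to 0.52. The myeloid phosphoinositide 3-kinase subunits Pik3cg and Pik3r5 were at 0.48 and 0.33 on the log2 scale, with unadjusted p of 0.015 and 0.0052, and did not pass the adjustment. Of the 6 tyrosine phosphatases of the list 0 were called, with Ptpn22 at 0.53 (unadjusted p 0.015, adjusted p 0.39) and the others between 0.02 and 0.22 on the log2 scale. Csk, the kinase that holds Src kinases inactive, was at 0.18 with an adjusted p of 0.52. Cblb, a ubiquitin ligase of the Cbl family, was at -0.09 with an adjusted p of 0.78. Dok3, an inhibitory adaptor that binds SHIP1, was at 0.25 and Cd300a, an inhibitory receptor that docks Ptpn6, at -0.17, with adjusted p of 0.61 and 0.55. Prkcb, a protein kinase C activated through Plcg2, was at 0.34 with an adjusted p of 0.56, but on pairs 2 and 4 alone it was at -0.05.

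Of the 7 genes of the module around Card9, 0 were called in the main fit. Their median log2 fold change was -0.09, and 2 of the 7 were above 0, beside 49.1% of all genes tested. Malt1, the protease of the Card9 complex, was at 85.6, 126, 85.7 and 129 CPM in control libraries 1 to 4 and at 70.1, 94.0, 68.3 and 79.5 CPM in IgG libraries 1 to 4. IgG was the lower of every pair, with a log2 fold change of -0.43 ± 0.10 (SE), an unadjusted p of 0.0023 and an adjusted p of 0.18. Malt1 was called as lower by the likelihood ratio test (adjusted p 0.025), with no filter (0.036) and on pairs 2 and 4 alone (0.013). Prkcd, the protein kinase C δ that phosphorylates Card9, was at 283 to 300.1 CPM in control and at 200.0, 282, 194 and 266 CPM in IgG libraries 1 to 4. Every IgG library was below every control library with TMM, though not with length and GC trends removed. Such a separation with IgG below was seen for 1.57% of all genes tested. In pairs 1 to 4 the log2 difference was -0.59, -0.06, -0.54 and -0.09. The log2 fold change of Prkcd, which was named after its value was seen, was -0.32 ± 0.12 (SE), with an unadjusted p of 0.027 and an adjusted p of 0.45. For scale, the interferon-stimulated genes Irf7 and Ifit1 in the same libraries had log2 fold changes of 1.13 and 1.06 with adjusted p of 0.0059 and 0.033.

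**Figure D5:**
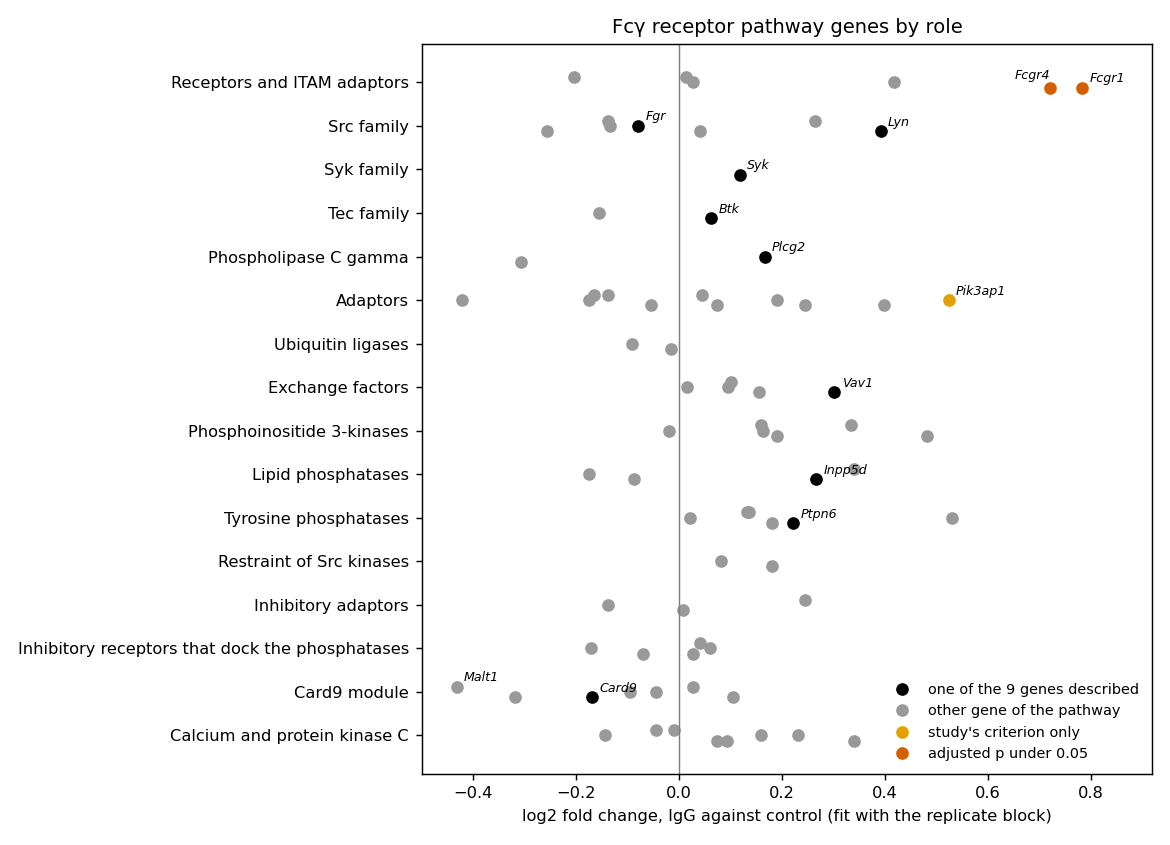
Log2 fold change with IgG of the 76 tested genes of the Fcγ receptor pathway, 1 dot per gene, in rows by role, from the fit with the pair number as a block. Black dots are the 9 genes described, orange-red dots are called at an adjusted p under 0.05, and the yellow dot meets the criterion of the study alone. Fcgr1 and Fcgr4 lie farthest to the right, and Malt1 farthest to the left.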

How the data were processed

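Primary cultured microglia were sequenced as 4 control and 4 IgG libraries, and the authors deposited whole-number counts per Ensembl gene, with no normalization and no filter. The authors cleaned the reads of adapters and of low-quality or undetermined bases and aligned them to mm10. The submitters' processing notes name HISAT2 2.2.1, featureCounts, SAMtools 1.12, Picard 2.26.3, R 4.1.2 and edgeR 3.36.0. The gene annotation, the handling of multi-mapped reads and the use of strand are not given in the sources used here.

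Groups and numbers came from the titles. Symbols, coordinates (GRCm38) and exon lengths came from GENCODE M21, in which 55144 of 55385 identifiers were found. Counts were scaled with TMM, filtered with filterByExpr and compared in edgeR 4.0.16 (R 4.3.3) by its quasi-likelihood test, the replicate number being a block, with Benjamini-Hochberg adjustment. The study's methods state no block, so the fit without it is given beside it. The labels give same-numbered libraries the same date, which pairs them. Across 15496 genes, their deviations from the group means correlated at 0.21 to 0.39, against -0.32 to 0.18 between different numbers. CPM on the log2 scale used a prior count of 2. TPM values were computed here from counts and the union of exons, with no TMM. The labels do not say what the dates mark or whether the libraries of a group are separate cultures, so p-values measure only the spread between these samples. No libraries of a group agreed within sampling noise. At these depths a count of 0 allows up to 3 counts, or 0.127 to 0.141 CPM. This covers counting error only.

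The members and lists were chosen with earlier results of these data known. Named genes were the 9 members and, of the pathway list, those called, their family members, the receptors, and the gene with the largest absolute change in each role. Irf7 and Ifit1 were taken as a scale because their changes were known. Lcp2, Pik3r5 and Prkcd were added after their values were seen. Some genes of the lists are not reported here. The 3 genes most alike each member were taken by Pearson's r of log2 CPM. Alternatives were the fit without the block, DESeq2's size factors or total counts for scaling, other filters, edgeR's likelihood ratio test, DESeq2 1.42.0, lowess trends on exon length and GC content (span 0.3), longest transcript lengths and each pair left out. Pairs 2 and 4 alone were added after the data were seen. The fits were tested on simulated data, and no result of that is given here.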

Additional observations from a re-analysis of the deposited data

Results flagged for a closer look

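Fgr in pair 4 lay far from the other pairs. Its log2 difference between the IgG and the control library was 0.91 there, against -0.49 to -0.38 in pairs 1 to 3. The gap to the nearest pair was 0.918 of the whole range, above the 95% critical value of Dixon's test for 4 values. The pair rests on 30 counts in the control and 55 in the IgG library. It was the 1 such value among 27 groups of 4 values examined for the 9 genes (CPM in control, CPM in IgG and the differences within pairs), and chance alone gives about 1 in 20.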

How the results depend on the processing

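No member was called at an adjusted p under 0.05 or by the criterion of the study under any alternative run, with 1 exception. The likelihood ratio test called 1, Lyn (adjusted p 0.045), against 0 in the main analysis, and the range of the smallest member adjusted p over the other alternatives was 0.053 to 0.996. Calls over all genes moved more. From 69 genes at an adjusted p under 0.05, the fit with no replicate block gave 0 (with 1230 at an unadjusted p under 0.05), total counts 37, no filter 376, the likelihood ratio test 327, DESeq2 224, removal of length and GC trends 204, pairs 2 and 4 alone 190, and leaving out 1 pair 0 (without pair 2) to 182 (without pair 4), with 14 without pair 1 and 16 without pair 3. By the criterion of the study, 320 genes became 148 with no replicate block, 648 with no filter, 528 by the likelihood ratio test and 215 to 762 on leaving out 1 pair, the last without pair 4. The block changed no member's call. The 4 dates of the labels separated 171 genes, and 536 by DESeq2. The cause of these moves was not tested.

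Total counts in place of TMM shifted the median of all genes from -0.01 to -0.11 and that of the members from 0.17 to 0.07, and turned the share of higher calls from 81.2% to 55.1%. Under it Btk was at -0.037, Fcgr2b -0.073, Fcgr3 -0.087, Src -0.061, Vav2 -0.085 and Ptpn11 -0.079. With at least 10 counts in every library Fcgr2b was at -0.00068, Fcgr3 -0.015, Vav2 -0.013 and Ptpn11 -0.0069, and with length and GC trends removed Fcgr2b was at -0.021. On leaving out 1 pair, Fgr ran from -0.46 (without pair 4) to 0.042, Fcgr2b from -0.013 to 0.059, Fcgr3 from -0.020 to 0.056, Src from -0.0097 to 0.066, Vav2 from -0.033 to 0.039, Ptpn11 from -0.019 to 0.034 and Cblb from -0.16 to 0.0078. On pairs 2 and 4 alone Fgr was at 0.27, Card9 0.23, Fcgr2b -0.042, Fcgr3 -0.089, Tyrobp 0.18, Vav3 -0.077, Inppl1 0.029, Ptpn11 -0.034 and Prkcb -0.047. These log2 fold changes, or an end of each range, differ in sign from the main analysis. Over the 36 named genes and all alternatives, 417 values kept their direction and side of the threshold, 30 changed direction, 12 passed the threshold newly and 9 no longer passed it. The new calls were of Lyn, Pik3ap1, Fcer1g, Malt1, Pik3cg (no filter, adjusted p 0.046) and Prkcb (without pair 4, adjusted p 0.046), and the lost ones of Fcgr1 and Fcgr4. Depth limits Fgr alone among the members, with 16 to 55 counts in a library.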

Other observations

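For each of the 9 genes, the 3 tested genes whose log2 CPM followed it most closely over the 8 libraries were listed. These libraries share 4 dates and a treatment, and the nearest of 17537 genes over 8 points reach a high r in any case. For Lyn they were Mybbp1a, Slc7a7 and Cpne8 (Pearson's r 0.99 for each). For Vav1 they were Xylt2, Lrrc25 and Cfb, a complement factor (0.99 to 1.00). For Inpp5d they were Il10rb, a subunit of the IL-10 receptor, Gpr31b and Adnp2 (0.99 for each). The nearest gene to Plcg2 was mt-Rnr1, the mitochondrial 12S ribosomal RNA (1.00), followed by Nt5c3 and the scavenger receptor Msr1 (both 0.99 to 1.00). Plcg2 was thus highest in the IgG libraries with the high mitochondrial share, at 158 CPM in both. For Syk they were Coro2a, Scimp and Stam2 (0.97 to 0.99), and for Btk an unnamed gene, A530032D15Rik and Adcy3 (0.98 to 0.99). For Ptpn6 they were Fhl3, Ddit3 and Ntpcr (0.97 for each), for Card9 they were Cdkn2d, Ormdl3 and Lrrc24 (0.99 for each), and for Fgr they were Gm5776, Gm42829 and Psmg2 (0.96 to 0.97).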
